A study of Mus musculus with 35 samples.

Results

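The genes described here are 32 heat-shock genes of the mouse, set beside 45706 genes in the deposited tables. They were given by name and encode the cytosolic chaperones HSP70, HSP110 and HSP90, the J-domain proteins and co-chaperones that work with them, the small heat-shock protein Hspb1, the transcription factors Hsf1 and Hsf2, and also Hspa9, Hspd1 and Hspe1, whose products act in mitochondria and not in the cytosol. The set was picked because targets of heat-shock factor had been seen to be lower in late disease in these same libraries. The contrast of late disease with control is therefore a description here and carries no test.

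HSP70 proteins bind stretches of unfolded protein and release them in a cycle of ATP hydrolysis. J-domain proteins bring the client and start the hydrolysis, HSP110 proteins and BAG proteins exchange the nucleotide, and HSP90 takes over partly folded clients with the help of its own co-chaperones. HSF1 is the main activator of these genes. It binds heat-shock elements, inverted repeats of a short unit, and is itself held back by chaperones when little protein is unfolded. TDP-43, the protein that drives disease in these mice, aggregates in neurons in amyotrophic lateral sclerosis, and microglia are the phagocytes that clear such neurons.

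RNA was sequenced from microglia sorted out of whole spinal cord of rNLS8 (NEFH-tTa/tetO-hTDP43) mice and wild-type (WT) littermates, all mixed C57BL/6J X C3HeJ F1. All mice were raised on doxycycline to 8 to 12 weeks of age, and from then on the diet differed by group. In rNLS8 mice its removal switches on human TDP-43 under a neurofilament promoter, which is active in neurons, so the sorted cells are not the cells that the transgene is built to express in. Early disease was 7 rNLS8 libraries after 2 weeks off doxycycline, late disease 7 after 6 weeks off, and recovery 7 after 6 weeks off and 1 week back on. The 14 controls were mixed, with 6 rNLS8 libraries that had stayed on doxycycline and 8 WT libraries, of which 4 came 2 weeks after its removal, 1 came 6 weeks after, and 3 followed the schedule of recovery.

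Depth ran from 13.9 M to 20.4 M expected counts per library (M, 1e6). Each sample title opens with a code, such as 0803, that is read here as a date. That reading is an inference, and date below means this code. All recovery libraries carried date code 0803 and 9 of the 14 controls date code 0810, and no other group has either. The 5 other controls share codes 1019 and 1102 with 5 early and 4 late libraries. The 2 other early and 3 other late libraries carry code 1130, which no control has. Recovery and date therefore cannot be told apart. The summed level of 10 microglial markers was 56935 to 66451 CPM (counts scaled to a library total of 1e6) in early disease, 46517 to 64864 CPM in late disease and 56571 to 65536 CPM in recovery, against 57980.1 to 73586 CPM in controls, and late disease library 6 was the lowest of all. In bulk RNA, fewer cells of a type and less RNA per cell cannot be told apart. Of the 32 members, 31 passed the filter on low counts. Hspb1, which stabilises unfolded proteins and the cytoskeleton, did not, with at most 11 counts in any library.

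The heat-shock element was sought as 3 units on the windows that RefSeq gives around transcription starts, 250 bases before to 50 after, on GRCm38.p6. The letters were GAANNTTCNNGAA or TTCNNGAANNTTC, which cover both strands, and a shorter form of 2 units, GAANNTTC or TTCNNGAA, lies inside every longer one. Windows were given for 26 members. The 3-unit element lay in 5 of these 26 members, or 19.2%, against 179 of 27025 genes, or 0.662%, and the 5 were Chordc1, Hsph1, Hspd1, Hspe1 and Dnajb6. The 2-unit form was found in 13 of the 26 members, or 50%, against 17.0% of all genes. A match describes these letters and is not a shown binding site, and the lack of a match does not show that no site is there. The windows of 4 genes are printed because they hold the 3-unit element, in capitals, and they lie at chr9:18292017-18292316 on the plus strand for Chordc1, chr5:149636266-149636565 on the minus strand for Hsph1, chr1:55087898-55088197 on the plus strand for Hspe1 and chr5:29735729-29736028 on the plus strand for Dnajb6.
Chordc1: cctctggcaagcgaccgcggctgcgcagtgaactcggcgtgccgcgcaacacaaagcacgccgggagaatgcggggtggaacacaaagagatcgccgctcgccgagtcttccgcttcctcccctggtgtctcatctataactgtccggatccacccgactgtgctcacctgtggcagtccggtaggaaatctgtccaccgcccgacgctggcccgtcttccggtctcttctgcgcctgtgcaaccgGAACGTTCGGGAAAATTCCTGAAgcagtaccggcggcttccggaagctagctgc
Hsph1: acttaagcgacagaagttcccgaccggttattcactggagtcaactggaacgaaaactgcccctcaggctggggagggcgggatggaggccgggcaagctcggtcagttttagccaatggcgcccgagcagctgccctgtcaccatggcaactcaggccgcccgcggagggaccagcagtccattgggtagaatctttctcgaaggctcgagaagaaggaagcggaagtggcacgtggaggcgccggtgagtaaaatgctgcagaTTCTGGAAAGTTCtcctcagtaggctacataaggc
Hspe1: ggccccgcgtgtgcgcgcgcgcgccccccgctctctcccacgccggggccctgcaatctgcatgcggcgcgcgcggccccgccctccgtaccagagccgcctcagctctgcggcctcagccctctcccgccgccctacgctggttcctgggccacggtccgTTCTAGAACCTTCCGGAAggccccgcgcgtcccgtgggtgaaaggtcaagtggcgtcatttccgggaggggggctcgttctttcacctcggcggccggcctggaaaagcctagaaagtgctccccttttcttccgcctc
Dnajb6: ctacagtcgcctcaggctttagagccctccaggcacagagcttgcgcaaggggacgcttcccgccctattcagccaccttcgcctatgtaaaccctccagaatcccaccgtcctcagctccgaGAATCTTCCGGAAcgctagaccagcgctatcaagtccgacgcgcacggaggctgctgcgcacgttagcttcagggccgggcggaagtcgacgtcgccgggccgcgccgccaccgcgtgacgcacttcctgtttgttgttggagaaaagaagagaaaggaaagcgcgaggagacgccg

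In Chordc1 the capitals are 3 overlapping elements that begin 4 bases before the start, and in Hspe1 they are 2 that overlap. Hspd1 is transcribed the other way from the same place, and its window shares 285 bases with that of Hspe1. Hspd1 (chr1:55077835-55088243, minus strand) and Hspe1 (chr1:55088132-55091307, plus strand) also overlap as genes, and because the library kit marks no strand their reads in that stretch cannot be told apart.

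Hspa1a and Hspa1b, the stress-inducible HSP70 genes, are near-identical copies on chromosome 17. Their windows are printed to show how alike they are, with the 2-unit form in capitals, at chr17:34972107-34972406 for Hspa1a and chr17:34959189-34959488 for Hspa1b, both on the minus strand.
Hspa1a: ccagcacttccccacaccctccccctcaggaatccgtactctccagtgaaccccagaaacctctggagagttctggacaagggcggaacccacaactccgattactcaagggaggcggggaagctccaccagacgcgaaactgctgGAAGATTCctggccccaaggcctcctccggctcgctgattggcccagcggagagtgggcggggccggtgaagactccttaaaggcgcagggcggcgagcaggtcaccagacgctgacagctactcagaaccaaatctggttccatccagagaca
Hspa1b: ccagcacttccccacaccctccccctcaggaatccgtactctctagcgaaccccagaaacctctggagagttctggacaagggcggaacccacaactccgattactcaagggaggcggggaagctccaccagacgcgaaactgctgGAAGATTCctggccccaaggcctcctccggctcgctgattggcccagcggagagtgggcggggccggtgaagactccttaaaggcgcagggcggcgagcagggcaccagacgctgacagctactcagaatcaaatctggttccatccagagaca

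Of the 300 bases, 296 were the same at the same position, or 98.7%. RSEM shares reads between such copies by estimation, so the split of counts between Hspa1a and Hspa1b is uncertain.

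The mean level of the 31 members was lowest in late disease. On the scale of log2(CPM + 0.5) it was 5.53 ± 0.08 in early disease, 5.30 ± 0.17 in late disease and 5.42 ± 0.11 in recovery, against 5.64 ± 0.18 in controls (SD, n = 7, 7, 7 and 14). Its lowest, median and highest values were 5.43, 5.50 and 5.66 in early disease, 5.10, 5.22 and 5.53 in late disease and 5.23, 5.43 and 5.54 in recovery, against 5.34, 5.63 and 5.86 in controls. The groups overlapped. Late disease library 1 had the lowest level and held the lowest late value for 17 of the 31 members, whereas late disease libraries 4, 5 and 7 were inside the control range. Among controls, library 14, the one WT mouse 6 weeks off doxycycline, was lowest. Without late disease library 6, which had the fewest microglial transcripts, the late mean was 5.31 ± 0.18 (SD, n = 6).

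**Figure D1:**
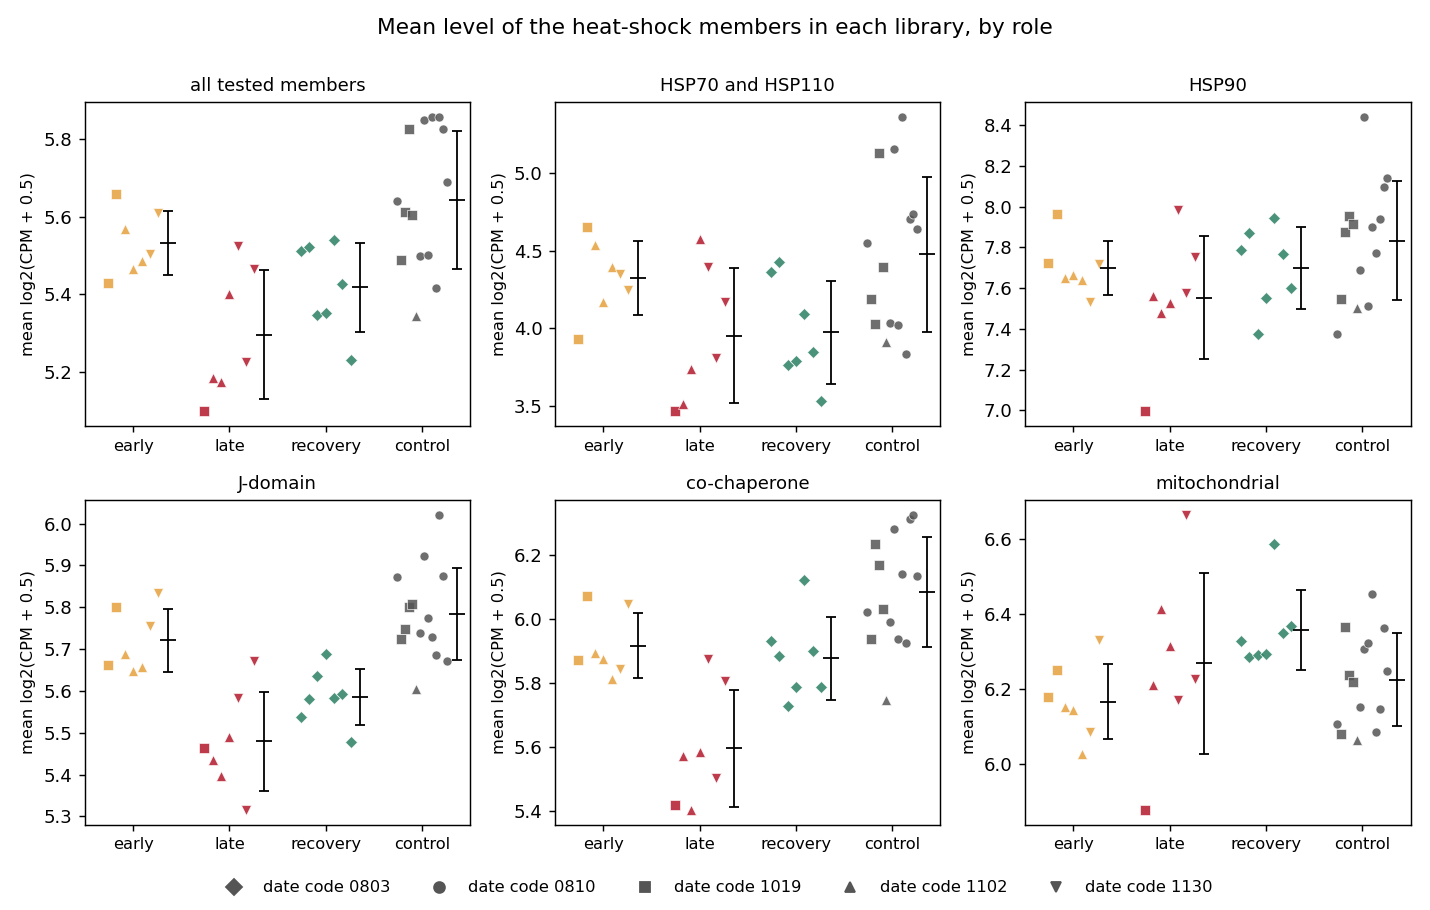
Mean log2(CPM + 0.5) of the tested members (first panel) and of their roles, one point per library and one marker shape per date code, with group mean and SD in black. The late points run from 5.10 to 5.53 in the first panel against 5.34 to 5.86 in controls, and late and control points overlap in every panel.

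Read member by member, 26 of the 31 had a lower level in late disease than in controls, with a median log2 change of -0.30 over the members and 0.02 over all 13501 genes tested. In the same fit 15 members were lower and 3 higher at an adjusted p under 0.05, where 6.39% of all genes were lower and 9.01% higher. These counts restate what the members were picked for. The 8 members with the largest late change were Hspa1b, Chordc1, Dnaja1, Dnajb1, Hsph1, Hspa1a, Ahsa2 and Hspa8, all lower. When one library was left out, 11 to 15 members counted as lower. The 3 counted as higher, Hspa4, Hspa9 and Dnajc7, are named after their values were seen.

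**Figure D2:**
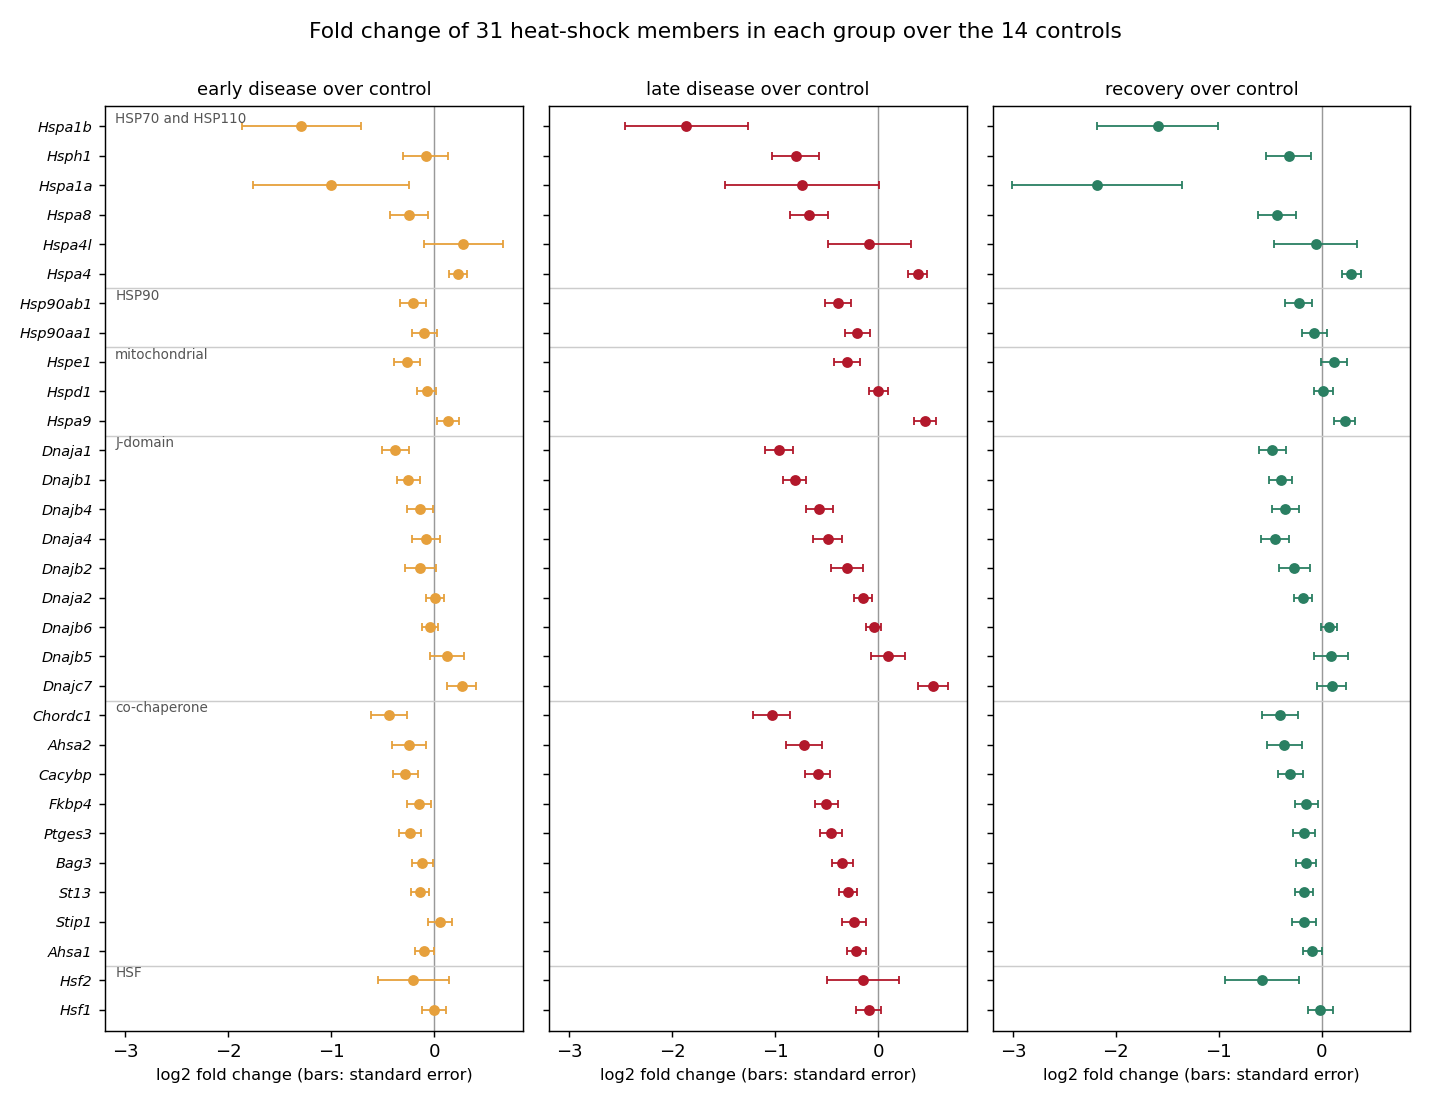
Log2 fold change of each tested member over the 14 controls in early disease, late disease and recovery, with its standard error, grouped by role. Hspa1b, at -1.86, is the lowest point of the late panel, and Dnajc7, at 0.53, the highest.

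Hspa8, the constitutive HSP70 that also uncoats clathrin vesicles, was the most abundant member, with a median of 803 TPM (transcript abundance scaled by length) in controls. Hspa8 had a lowest, median and highest level of 498, 844 and 1275 CPM in early disease, 313, 770.3 and 977 CPM in late disease and 447, 708 and 1496 CPM in recovery, against 708, 964 and 1544 CPM in controls. Of the 7 late libraries, 3 were below every control and 4 lay inside the control range. The late change was -0.67 ± 0.19 on the log2 scale (SE). Hsph1, an HSP110 that exchanges the nucleotide of HSP70, had a median of 24.6 CPM (16.4 to 39.5) in early disease, 10.6 CPM (9.05 to 30.4) in late disease and 20.6 CPM (15.7 to 33.2) in recovery, against 24.3 CPM (17.2 to 46.7) in controls. Of the late libraries 4 were below every control and 3 inside the control range, and the late change was -0.80 ± 0.23. Hspa4, another HSP110, was the exception of its family. It had a median of 102 CPM (93.0 to 106) in early disease, 112 CPM (100 to 129) in late disease and 106 CPM (92.1 to 114) in recovery, against 86.7 CPM (54.8 to 112) in controls. No late library was below the control median, 3 were above every control, and the late change was 0.38 ± 0.09, in the direction opposite to Hsph1. Hspa4l, the third of these, was scarce and uneven, with a late change of -0.09 ± 0.40.

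The inducible copies were scarce. Hspa1a had a lowest, median and highest level of 0.532, 1.16 and 4.15 CPM in early disease, 0.105, 0.845 and 8.82 CPM in late disease and 0.109, 0.501 and 1.05 CPM in recovery, against 0, 1.80 and 14.3 CPM in controls. A single late library, number 4, was far above the 6 others. Hspa1b had a lowest, median and highest level of 0.725, 1.60 and 4.43 CPM in early disease, 0, 0.792 and 3.90 CPM in late disease and 0.150, 1.45 and 5.30 CPM in recovery, against 1.13, 4.48 and 9.999 CPM in controls. Late disease library 2 had no count for it. The late change was -0.74 ± 0.75 for Hspa1a and -1.86 ± 0.60 for Hspa1b. The direction of Hspa1a turned with date code as a term, to 0.81, and against the 5 controls of shared date codes, to 0.33. It also turned, to 0.72, with the share of TPM outside the deposited table as a term. Its late change was -1.97 without late disease library 4 and -0.27 without control library 5.

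**Figure D3:**
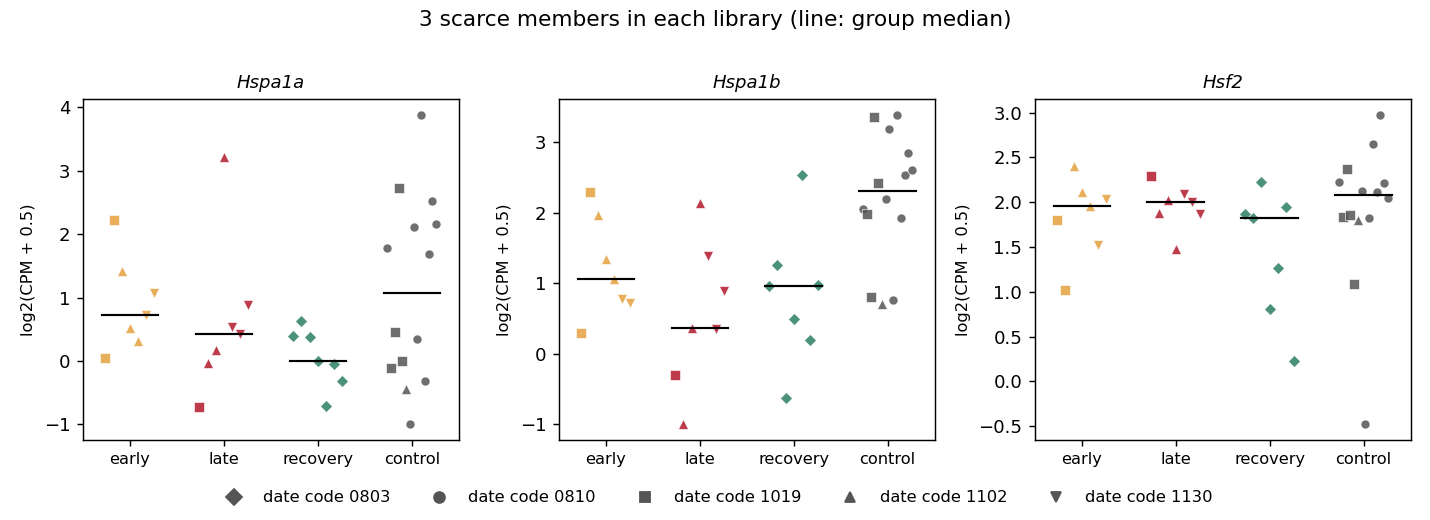
Log2(CPM + 0.5) of Hspa1a, Hspa1b and Hsf2 in each library, with one marker shape per date code and a line at each group median. Hspa1a spans a wide range in every group, and late disease library 4, at 3.22, stands above its group.

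Hsp90ab1 and Hsp90aa1 encode the constitutive and the inducible cytosolic HSP90. Hsp90ab1 had a lowest, median and highest level of 424, 466 and 516 CPM in early disease, 296, 415 and 593 CPM in late disease and 359, 459 and 539.8 CPM in recovery, against 379, 514 and 810.0 CPM in controls. Of the late libraries 3 were below every control and one, library 5, was above the control median. The late change was -0.39 ± 0.13. Hsp90aa1 had a median of 93.8 CPM (76.3 to 120.4) in early disease, 92.5 CPM (54.4 to 108) in late disease and 93.5 CPM (75.9 to 112) in recovery, against 101 CPM (64.6 to 149) in controls. A single late library was below every control, and the late change was -0.20 ± 0.12.

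The J-domain genes held the member with the clearest late offset. Dnajb1, the main HSF1-inducible J-domain partner of HSP70 (chr8:83608193-83612653, plus strand), had a median of 86.3 CPM (68.3 to 116) in early disease, 61.4 CPM (40.6 to 68.6) in late disease and 76.9 CPM (72.4 to 99.6) in recovery, against 101 CPM (81.0 to 145) in controls. All 7 late libraries were below all 14 controls, which held for Dnajb1 alone among the members and for 0.193% of all genes tested. Against the 5 controls of shared date codes the same was true of Dnajb1 alone, and of 0.815% of all genes. Its late change was -0.81 ± 0.11. Recovery libraries were all above late ones for Dnajb1 and for Hspe1, as for 0.407% of all genes. The late values took part in picking the members, so this is a description only. Recovery also has a date code of its own. Dnaja1, a farnesylated J-domain partner of HSP70 (chr4:40722150-40737149, plus strand), had a median of 145 CPM (122 to 201) in early disease, 94.3 CPM (71.2 to 135) in late disease and 136 CPM (106 to 174) in recovery, against 195 CPM (124 to 249) in controls. Of the 7 late libraries 5 were below every control, and the late change was -0.96 ± 0.13. Dnajc7, which binds both HSP70 and HSP90, ran the other way with 0.53 ± 0.14, and its late levels ran from 71.0 CPM in library 2 to 229 CPM in library 1. Without late disease library 1 its change was 0.32 ± 0.12 and it no longer counted as higher, with an edgeR adjusted p of 0.069. Among the 6 other J-domain genes, Dnajb4 and Dnaja4 had late changes of -0.57 and -0.49, and Dnajb2, Dnaja2, Dnajb6 and Dnajb5 ran from -0.30 to 0.09.

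**Figure D4:**
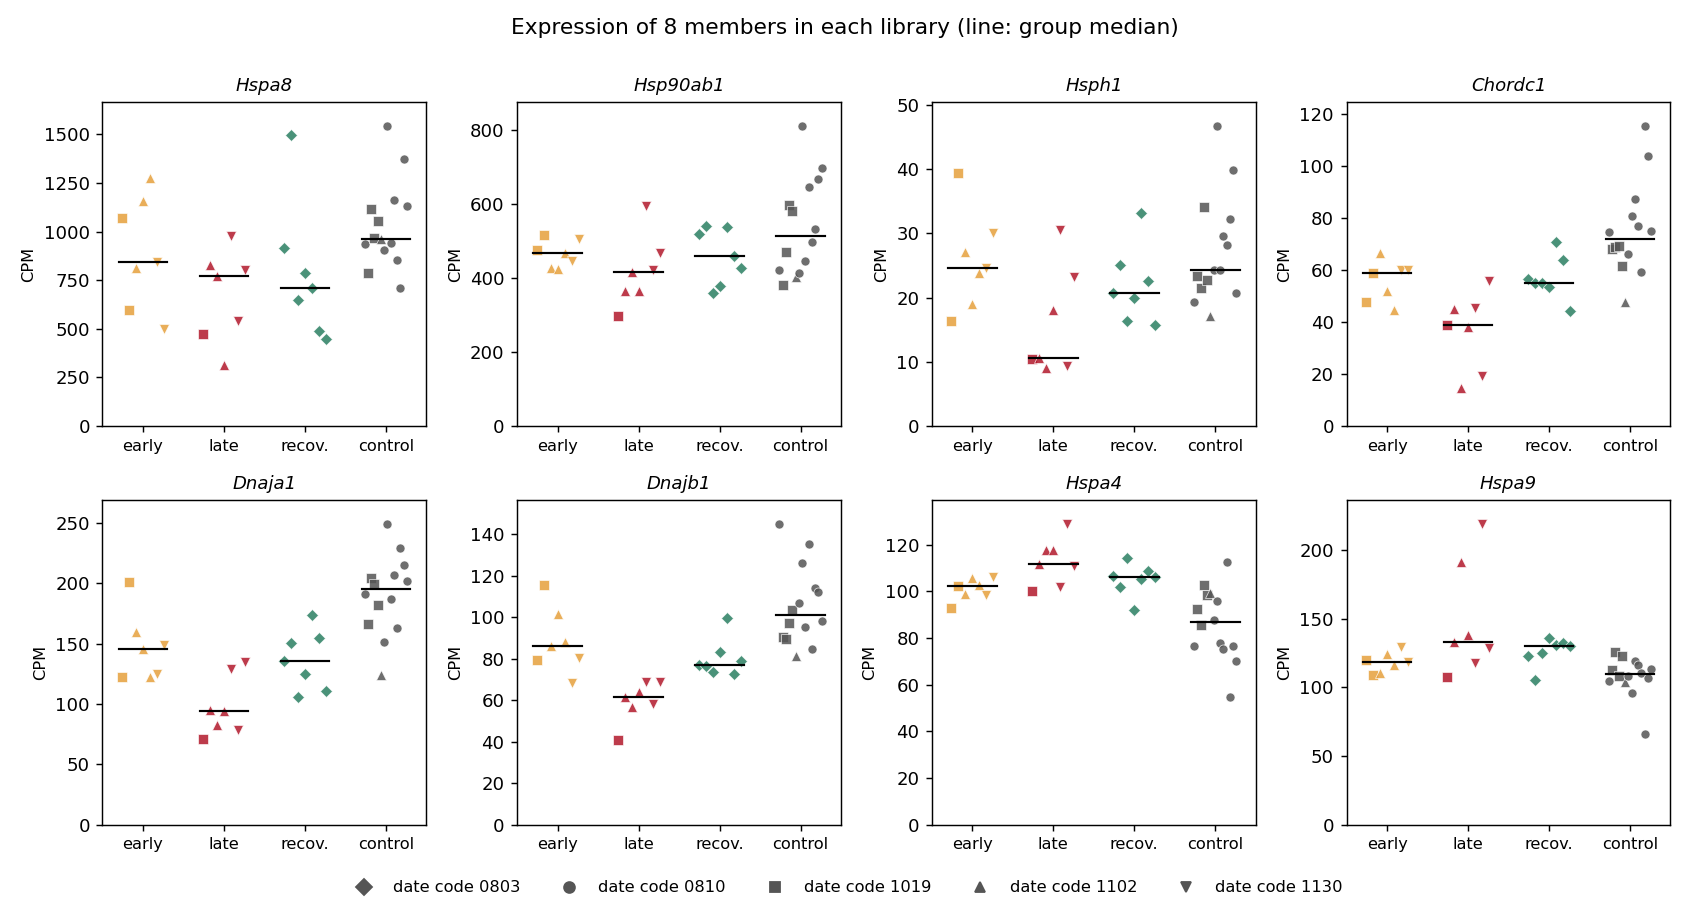
CPM of 8 members in each library, with one marker shape per date code and a line at each group median. All 7 late points of Dnajb1, from 40.6 to 68.6 CPM, lie under the lowest control at 81.0 CPM, while Hspa4 and Hspa9 have late medians above those of controls.

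All 9 co-chaperone genes had lower late values, also under each of 34 other settings. Chordc1, an HSP90 partner that is strongly heat-inducible and carries the overlapping elements printed above, had a median of 58.8 CPM (44.8 to 66.6) in early disease, 39.0 CPM (14.5 to 55.8) in late disease and 55.0 CPM (44.3 to 71.0) in recovery, against 72.0 CPM (47.8 to 115) in controls. Of the 7 late libraries 6 were below every control, and the late change was -1.03 ± 0.18. Ahsa2, a paralog of the HSP90 ATPase activator Ahsa1, had a median of 19.0 CPM (18.1 to 21.6) in early disease, 14.5 CPM (8.94 to 21.5) in late disease and 16.9 CPM (13.8 to 27.9) in recovery, against 21.5 CPM (13.3 to 41.6) in controls. All 7 late libraries were under the control median and 3 of them below every control, with a late change of -0.72 ± 0.17, whereas Ahsa1 itself differed by -0.21 ± 0.09. The remaining late changes were -0.59 for Cacybp, -0.50 for the immunophilin Fkbp4, -0.46 for the HSP90 co-chaperone p23 (Ptges3), -0.35 for Bag3, an exchange factor of HSP70 in selective autophagy, -0.29 for St13 and -0.23 for Stip1, which joins HSP70 to HSP90.

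The late changes of the 3 mitochondrial members differed in sign. Hspa9, the mitochondrial HSP70, had a median of 118 CPM (109 to 129) in early disease, 133 CPM (108 to 219) in late disease and 130.3 CPM (105 to 136) in recovery, against 109 CPM (66.1 to 126) in controls. Of the late libraries 5 were above every control, and the late change was 0.45 ± 0.11. Hspd1 and Hspe1, the 2 parts of the mitochondrial chaperonin, had late changes of 0.00 ± 0.09 and -0.30 ± 0.12, and reads of the one may be counted for the other. The median of the 3 was 0.00 in late disease, and on log2(TPM + 1) it was 0.17.

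The regulators had small late changes. Hsf1, the activator, had a median of 32.3 CPM (27.1 to 38.6) in early disease, 30.0 CPM (22.3 to 41.1) in late disease and 32.3 CPM (29.0 to 35.5) in recovery, against 33.0 CPM (21.8 to 49.0) in controls, with a late change of -0.09 ± 0.12. Hsf2, a related factor, had a median of 3.38 CPM (1.53 to 4.82) in early disease, 3.52 CPM (2.29 to 4.41) in late disease and 3.06 CPM (0.669 to 4.20) in recovery, against 3.73 CPM (0.218 to 7.38) in controls, with a late change of -0.15 ± 0.35. Late and control values overlapped for both, and the direction of both turned on log2(TPM + 1).

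The late changes of the members with the 3-unit element had a median of -0.30 over 5 members, from -1.03 for Chordc1 to 0.00 for Hspd1, and the 20 tested members without it had a median of -0.40. Dnajb1, Hspa1a and Hspa1b are among the 20, which lack these exact letters in the window and may still have binding sites. Hspd1 and Hspe1, both among the 5, share 285 bases of their windows. No test was made.

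Early disease was compared with controls to ask whether the offset was already there 2 weeks after doxycycline removal. No member passed in edgeR's quasi-likelihood test at an adjusted p under 0.05, where 0.00741% of all genes, a single gene, did. DESeq2 called none of them either. Against the 6 rNLS8 controls alone Hspa4 passed as higher, with 0.38 ± 0.11 (adjusted p = 0.0339, edgeR). Beside 12.6% of all genes at an unadjusted p under 0.05 in edgeR, there were 8 of the 31 members, 7 of them lower. Dnaja1 had the smallest adjusted p of these in edgeR, 0.22, with a change of -0.38 ± 0.13. Chordc1 changed by -0.44 ± 0.18 and Hspa1b by -1.30 ± 0.58, with edgeR adjusted p of 0.280 and 0.347. Over the 31 members the median was -0.14, and 0.00 over all genes, whereas on log2(TPM + 1) it was 0.13 over the members and 0.22 over all genes. This comparison shares its controls with the one on which the members were picked, so that its direction is no independent evidence.

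Recovery was compared with controls to ask whether the genes return once the transgene is off again. Dnaja1 and Dnajb1 were lower, and no member was higher, in edgeR's quasi-likelihood test, where 1.1% of all genes were lower and 2.87% higher. Dnaja1 fell by 0.48 ± 0.13 on the log2 scale (adjusted p = 0.0285, edgeR) and Dnajb1 by 0.40 ± 0.11 (adjusted p = 0.0344, edgeR). The count of members called ran from 0 to 4 when one library was left out. It was 0 without recovery library 4, 5 or 9, 1 without recovery library 2, 3 or 8 or control library 1, 3 or 5, and 4 without control library 14. Without recovery library 2 the single call was Dnaja4. Over these 21 fits Dnaja1 passed in 17 and Dnajb1 in 12. Against the 8 WT controls the count of members called was 0, as on log2(TPM + 1), and with DESeq2 it was 6. Against the 6 rNLS8 controls it was 3, with Dnaja1 and Hspa1a lower and Hspa4 higher, and Dnajb1 did not pass. In that fit the change was -2.74 ± 0.80 for Hspa1a (adjusted p = 0.0408, edgeR) and 0.44 ± 0.11 for Hspa4 (adjusted p = 0.0129, edgeR). The next members by adjusted p in edgeR were Dnaja4, with -0.46 ± 0.14 and 0.0536, and Hspa4, with 0.29 ± 0.09 and 0.0624. Hspa8 differed by -0.43 ± 0.18, and Hspa1a by -2.19 ± 0.83, without passing against all 14 controls. The median was -0.17 over the members and -0.01 over all genes. As in early disease, the controls are those of the contrast on which the members were picked. Dnaja1 and Dnajb1 were also among the 8 members with the largest late change. That both were lower in recovery is therefore no independent evidence.

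Markers of neutrophils, monocytes and border macrophages were higher in recovery than in controls, and a few of them were higher in late disease too. The summed level of 13 neutrophil genes was 546 to 783 CPM in early disease, 683 to 1062 CPM in late disease and 792 to 7674 CPM in recovery, against 455 to 853 CPM in controls, and 10 of the 11 tested were higher in recovery. Of its defining genes Mpo was at 0 in all early, late and control libraries and Elane in all late ones. Monocyte genes, 9 in number, summed to 11.2 to 37.6 CPM in early disease, 32.0 to 158 CPM in late disease and 71.1 to 608 CPM in recovery, against 6.51 to 26.2 CPM in controls. Of the 8 monocyte genes tested 7 were higher in recovery. Border macrophage genes, 8 in number, summed to 4.76 to 21.0 CPM in early disease, 3.14 to 38.3 CPM in late disease and 8.11 to 59.2 CPM in recovery, against 1.66 to 12.8 CPM in controls. Of these 2 were higher in recovery, and the median log2 change of the 8 was 2.41. In late disease 1 of 11 neutrophil, 2 of 8 monocyte and 1 of 8 border macrophage genes passed as higher, and none as lower. Of the 10 microglial markers 4 passed as lower and 1 as higher there. The 3 erythroid genes tested had median log2 changes of -5.23 in early disease, -4.27 in late disease and -1.69 in recovery, and none passed. The part of these cells in the members' values was not tested.

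Recovery against early disease contrasts neither late libraries nor controls, the libraries of the contrast behind the choice of members. Those libraries still entered the shared fit that set the filter, scaling and gene variances. Recovery and early disease have no date code in common, so group and date cannot be told apart here. No member passed in edgeR's quasi-likelihood test, where 0.793% of all genes did, and DESeq2 called none. Beside 10.9% of all genes at an unadjusted p under 0.05 in edgeR, there were 2 members. They were Hspe1 with 0.38 ± 0.14 and Dnaja4 with -0.37 ± 0.16. The 2 inducible HSP70 genes had wide errors, with -1.18 ± 0.90 for Hspa1a and -0.30 ± 0.64 for Hspa1b. The median over the members was -0.04, with a median SE of 0.14.

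Within the controls of date code 0810, rNLS8 mice kept on doxycycline were compared with WT mice on the recovery schedule, to ask whether genotype or diet goes with a difference. The WT mice had been 6 weeks off doxycycline and 1 week back on. Genotype and diet therefore differ together here and cannot be told apart. No member passed in edgeR's quasi-likelihood test and neither did any gene (0% of 13470), though 600 genes had an unadjusted p under 0.05 and DESeq2 called 36 genes. Dnajb2, at 0.44 ± 0.19, was the one member with an unadjusted p under 0.05. DESeq2 called no member. The median over the members was -0.04 and its SE per gene 0.19.

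The share of the TPM total that lay outside the deposited table averaged 4.35% in early disease, 3.71% in late disease and 5.90% in recovery, against 6.38% in the 5 controls of shared dates and 18.3% in the 9 dated 0810. No source used here says what that share holds. Late values were therefore set against subsets of controls. With all 7 late libraries set against the 5 controls of codes 1019 and 1102, 24 of 31 members were lower, with a median of -0.23. All 5 were WT, and 4 of them had been off doxycycline for 2 weeks, against 6 in late disease. Against the 6 rNLS8 controls, all of code 0810, 26 were lower with a median of -0.48. Against the 8 WT controls 25 were lower with a median of -0.26. In a fit of all libraries with date code as a term, 27 were lower with a median of -0.24. The 9 controls dated 0810 share that code with no other group. The value with a date term therefore rests on the same 5 controls and is not a separate check. With date code as a term no member, and 18 genes in all, passed at an adjusted p under 0.05 in edgeR, against 15 lower and 3 higher members in the fit without it. With the share as a term the median was -0.19 and 21 were lower. On log2(TPM + 1) 21 were lower with a median of -0.15, but the median of all genes was 0.18 on that scale, and the sign of several small member changes turned there.

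**Figure D5:**
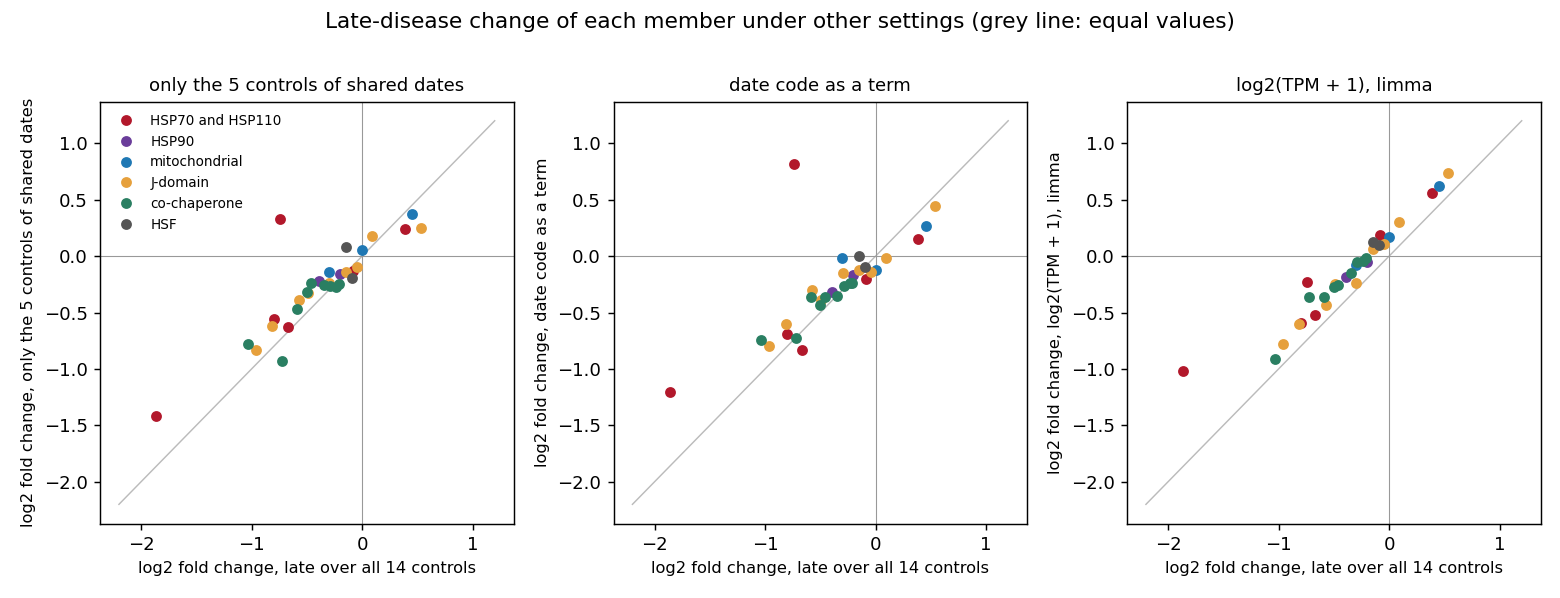
Late log2 fold change of each tested member against all 14 controls (horizontal axis) and, on the vertical axes, against the 5 controls of shared dates, with date code as a term, or on log2(TPM + 1). Most points keep their side of 0. Hspa1a leaves it with 0.33 against the controls of shared dates and 0.81 in the fit with date code. In the third panel the whole cloud lies above the line of equal values.

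Inside single date codes the offset was uneven. Date code 1019 holds 4 controls and late disease library 1, which had the lowest mean level of the members in late disease. In that library 26 of 31 members were lower, beside 45.7% of all genes. The median difference on log2(CPM + 0.5) was -0.55 over the members and 0.05 over all genes. Date code 1102 holds 3 late libraries and control library 14, the lowest control. There 21 members were lower, beside 49.8% of all genes, with a median of -0.10 and 0.00 over all genes. For Dnajb1 the difference was -1.21 in code 1019 and -0.42 in code 1102. Early disease in the same date codes gave 22 and 8 lower members, beside 48.6% and 50.5% of all genes, with medians of -0.04 and 0.17. In each code late disease or control has a single library, so no test was made of late disease, and the 2 early libraries and 4 controls of code 1019 are given as values.

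For genes close to the members in function, the late counts stand beside 6.39% of all genes lower and 9.01% higher, and nothing particular to these lists was tested. Of the 8 genes of the TRiC chaperonin, which folds actin and tubulin, Cct4 was lower (-0.32) and none higher, and of the 6 of prefoldin, its partner, Vbp1 was lower (-0.61). Other HSP70 genes and exchange factors had 1 lower, Hspa13, and 2 higher, Bag1 and Bag6, among 9 tested. Other J-domain genes had 3 higher among 16, Dnajc5, Dnajc16 and Dnajc27, and other HSP90 co-chaperones had Sugt1 lower and Fkbp8 and Stub1 higher among 18. Of 13 tested HSF1 partners and stress targets, Hikeshi, which carries HSP70 into the nucleus, was lower (-0.77), as was Dnajb9 (-0.58), and Atf3 was higher (0.91). Mitochondrial chaperones and proteases had Lonp1 higher among 12, and no small heat-shock gene of 3 passed. In recovery, Stub1 (0.33) and Atf3 (0.78) were higher and no other gene of these lists passed, and in early disease none did.

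Of 18 immediate early genes that respond to tissue dissociation, 8 passed as higher and 3 as lower in late disease, with a median of 1.05. Dusp1, a phosphatase of stress kinases, was higher by 3.23 and Fos by 2.66, while Klf2 had a change of -1.89. Their summed level was 1451 to 1783 CPM in early disease, 1396 to 4293 CPM in late disease and 1471 to 1996 CPM in recovery, against 1424 to 2049 CPM in controls. Late disease library 6 held the highest of these sums. Without that library 27 members were lower in late disease, with a median of -0.33. The part of cell preparation in the members' values was not tested.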

How the data were processed

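RNA sequencing of sorted microglia gave 35 libraries in 4 groups. Expected counts per gene and TPM (transcript abundance scaled by gene length and library) were deposited by the authors, who name RSEM, DESeq2 and the mm10 build per the submitters' processing notes, with no versions; 84.7% of the expected counts were whole within 1e-6. A design table that the authors deposited gives the count of alignments per library, 38.4 M to 52.7 M. The members and gene lists were chosen with earlier results of these data known.

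Expected counts were rounded and fitted in edgeR 4.0.16 (quasi-likelihood F test, TMM scaling, filterByExpr by group) over all 35 libraries with group and labelled sex as terms. The comparison of rNLS8 with WT controls was fitted over the 14 controls alone. P-values were adjusted by Benjamini-Hochberg over all genes tested, 13501 in the fit of all libraries, and a gene was called at an adjusted p under 0.05. Levels are CPM on TMM-scaled library sizes, and log levels are log2(CPM + 0.5). Labelled sex differs from the deposited design table in 2 controls, and both were tried. The labels give 1 sample per library but do not say whether animals were pooled, so p-values measure the spread between these libraries. The fits were tested on simulated data.

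Full values were given for the 8 members with the largest late change, the 5 called members with the smallest adjusted p in each tested comparison, and Hspa1a, Hspa1b, Hspa8, Hsp90aa1, Hsp90ab1, Hsf1 and Hsf2, with other members by range and count and at most 3 called genes of each other list, by adjusted p. Alternatives were DESeq2 1.42.0, RLE scaling, no low-count filter, limma 3.58.1 on log2(TPM + 1) and log2(TPM + 0.1) for genes with at least 1 TPM in 6 libraries, other sex terms, a replicate block, date code as a term, the share of TPM outside the table as a covariate, subsets of controls and each library left out. Promoter windows are from RefSeq on GRCm38.p6. Symbols came with 45143 of the 45706 gene identifiers. R was version 4.3.3. No pair of libraries in a group was alike within sampling noise.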

Additional observations from a re-analysis of the deposited data

Results flagged for a closer look

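Sets of 7 libraries were checked by Dixon's test, each for a single member, or the mean over the members, in a single group. In 8 of 96 sets the highest or lowest log2(CPM + 0.5) stood far from the 6 others, which chance gives in about 1 in 20. In late disease these were Hspa1a, high in library 4 at 3.22, and Dnajb1, low in library 1 at 5.36. In early disease Fkbp4 was high in library 8 at 6.99. Recovery held the 5 others. Library 7 was high for Hspd1 at 7.02 and for Ahsa2 at 4.83 and low for Dnajb2 at 3.59, library 3 was low for Hspa9 at 6.72, and library 2 was low for Dnajb6 at 6.61.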

How the results depend on the processing

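The count of members lower in late disease, 26 of 31, ran from 21 of 31 to 28 of 32 over the other settings and from 25 to 27 when one library was left out. Over 34 other settings 19 members were lower in every one, 3 higher in every one and 9 took both signs. In recovery against control the 2 calls became 6 with DESeq2, 5 with the replicate block, 3 with the 6 rNLS8 controls, and 0 with log2(TPM + 1), log2(TPM + 0.1), the TPM share as a covariate or the 8 WT controls, and 0 to 4 when one library was left out. In early disease against control the 0 calls became 2 with the replicate block and 1 with the 6 rNLS8 controls, and stayed 0 when any one library was left out. Recovery against early disease and rNLS8 against WT had 0 calls under each setting run. Libraries of the same replicate number did not deviate together, with a median correlation of -0.009 over 37 such pairs against -0.002 over 404 others, so the numbers were not taken as pairs. Over all genes edgeR called 1 in early disease against control, which became 138 in DESeq2, 1056 on log2(TPM + 1), 933 on log2(TPM + 0.1), 613 with the replicate block and 735 with the 6 rNLS8 controls. In late disease 2080 became 18 with a date term, 191 against controls sharing a date, 252 with the TPM covariate and 1009 with the 8 WT controls. In recovery against control 537 became 912 with the replicate block, 253 with the TPM covariate and 293 with the 8 WT controls. In recovery against early disease 107 became 222 in DESeq2, 162 with no filter and 40 with the replicate block. For rNLS8 against WT 0 became 36 in DESeq2 and 116 with no filter. On log2(TPM + 1) the median of all genes was 0.22 in early and 0.18 in late disease. The causes were not tested. Depth limits Hspa1a, Hspa1b, Hspa4l and Hsf2, at a few CPM.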
